A study of Mus musculus with 12 samples.

Results

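The genes followed across 12 mouse mammary tumors were 8 that mark lymphoid tissue: the chemokines Cxcl13, Ccl19 and Ccl21a, the chemokine receptors Cxcr5 and Ccr7, the lymphotoxins Lta and Ltb, and the lymphotoxin receptor Ltbr. They are 8 of the 750 genes measured, were found by their symbols, and were chosen by name with earlier results of these same tumors known, so that their differences between treatments and their correlations are given as descriptions. The question was whether they move together from tumor to tumor, as they would where lymphoid tissue lies in a tumor. Every tumor was of 1 triple-negative breast cancer model, K14-Cre;Brca1f/f;Trp53f/f, in which the keratin 14 promoter drives Cre in epithelium and deletes Brca1 and Trp53. The tumors were transplants in the mammary fat pads of FVB/129P2 females of matching background, whose own immune and stromal cells enter the tumor. The 4 groups of 3 tumors each were taken at 3 days. The vehicle group received DMSO intraperitoneally and saline into the tumor, the ADU-S100 group a single intratumoral dose of 50 μg ADU-S100 in 40 μl with DMSO intraperitoneally, the olaparib group 50 mg/kg olaparib daily with saline into the tumor, and the combination group both drugs. The cyclic dinucleotide ADU-S100 activates the innate immune adaptor STING, and olaparib inhibits PARP. All 4 groups thus carried the Brca1 and Trp53 deletions and received both kinds of injection.

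In lymph nodes, CXCL13 is made by follicular stromal cells and dendritic cells and draws CXCR5-bearing B cells and follicular helper T cells into follicles, while CCL19 and CCL21 are made by stromal cells of the T cell zone, and CCL21 also by lymphatic and high endothelial vessels, and draw T cells and mature dendritic cells through CCR7. LTα and LTβ, made by lymphocytes and lymphoid tissue inducer cells, form a heterotrimer that binds the lymphotoxin β receptor on stroma, which signals through the non-canonical NF-κB pathway of NIK, RelB and NF-κB2 and maintains expression of the same chemokines. Where these genes rise together in inflamed tissue or tumors, they are read as a sign of tertiary lymphoid structures.

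The stretches before the start sites of the chemokine genes are shown because Ccl19 and Ccl21a, which lie next to each other on chromosome 4 in the RefSeq gene order, had levels that followed each other across the tumors, while Cxcl13 on chromosome 5 did not follow them. The sequences are the 250 bases before the start, from RefSeq on GRCm38.p6, and capitals mark matches on either strand to GAAA, any 2 bases and GAAA, the core of the interferon-stimulated response element.
Cxcl13 (chr5:95956689-95956938, plus strand): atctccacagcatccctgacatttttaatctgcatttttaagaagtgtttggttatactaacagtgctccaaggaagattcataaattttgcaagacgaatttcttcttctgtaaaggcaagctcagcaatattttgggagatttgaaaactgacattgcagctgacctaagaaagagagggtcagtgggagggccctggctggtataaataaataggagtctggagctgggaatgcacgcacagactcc
Ccl19 (chr4:42756366-42756615, minus strand): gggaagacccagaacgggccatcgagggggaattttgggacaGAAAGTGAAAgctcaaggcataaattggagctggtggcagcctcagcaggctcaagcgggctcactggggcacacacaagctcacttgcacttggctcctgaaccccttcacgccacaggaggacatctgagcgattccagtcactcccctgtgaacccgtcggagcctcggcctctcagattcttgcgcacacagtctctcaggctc
Ccl21a (chr4:42773992-42774241, minus strand): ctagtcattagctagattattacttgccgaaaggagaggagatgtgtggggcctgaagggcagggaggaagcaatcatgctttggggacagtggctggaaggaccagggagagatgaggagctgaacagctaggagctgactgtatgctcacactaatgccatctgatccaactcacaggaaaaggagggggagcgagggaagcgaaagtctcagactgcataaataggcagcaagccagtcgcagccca
Ccl19 held 1 match, which begins 208 bases before the start, and the windows of Cxcl13 and Ccl21a held none. These letters occurred in 2.98% of the 32851 promoter windows of the same length. Promoter sequences were at hand for 6 of the 8 members, and those of Lta, Ltb and Ltbr held no match. The letters are also missing from the windows of Ifit2 and Ifi44, which are interferon-induced genes, so a window without a match says nothing of interferon control.

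The values are normalized nCounter counts, in which color-coded probes are counted without amplification, and the number of counts that 1 unit stands for differs between tumors. The recovered counts summed to 632152 to 1519471 in vehicle tumors, 372390 to 683982 in ADU-S100 tumors, 106206 to 1392128 in olaparib tumors and 1339258 to 1491854 in combination tumors. One count was worth 0.589 to 2.85 normalized units in 11 tumors and 10.5 in olaparib tumor 1517, which had the lowest total. Genes at background gave 3 to 7 counts in each tumor, which comes to 31.4 normalized units in tumor 1517 and 3.54 to 17.1 elsewhere. Values without tumor 1517 are given beside the results it moves most. The tumor numbers start with 12 in vehicle tumor 1269 and combination tumors 1251 and 1270 and with 15 in the other 9, for which the labels give no meaning. In bulk tumor RNA, fewer cells of a type and less RNA per cell cannot be told apart. The epithelial marker Epcam was between 4580 and 15844 in every tumor, and the leukocyte marker Ptprc was between 152 and 1003.

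Among the chemokines, Cxcl13 was the one with high levels in every combination tumor. Its normalized counts were 302, 43.1 and 15.2 in the vehicle tumors, 68.4, 19.6 and 64.2 in the ADU-S100 tumors, 364, 52.4 and 219 in the olaparib tumors, and 593, 249 and 357 in the combination tumors. The combination tumors were thus all above the ADU-S100 tumors, but vehicle tumor 1269 and olaparib tumor 1510 lay above the lowest of them. The mean was 400 ± 176 in the combination group against 120 ± 158 in the vehicle group (SD, n = 3 each). On the log2 scale the combination differed from vehicle by 2.65 ± 1.02 (SE), from ADU-S100 by 3.05 ± 1.02 and from olaparib by 1.21 ± 1.02, with limma adjusted p-values of 0.47, 0.49 and 0.72. Without tumor 1517, which had 5 counts of Cxcl13, the difference from olaparib was 0.41. The vehicle tumor with the highest value and 2 of the combination tumors are the 3 with numbers starting with 12. With the number series as a block the log2 difference from vehicle was 2.04, that from ADU-S100 1.85 and that from olaparib 0.01. Within the series starting with 15, the single combination tumor had 357 and the 2 vehicle tumors had 43.1 and 15.2.

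Ccl19 and Ccl21a, the ligands of CCR7, were high in the same 3 tumors, 1 in each group other than the combination. Ccl21a was 17.1, 534 and 13.2 in the vehicle tumors, 746, 19.6 and 22.8 in the ADU-S100 tumors, 85.7, 1352 and 5.89 in the olaparib tumors, and 27.5, 91.5 and 33.6 in the combination tumors. Vehicle tumor 1529, ADU-S100 tumor 1506 and olaparib tumor 1517 stood apart, the lowest of them at 534 and the highest of the other 9 at 91.5, and the groups overlapped throughout. Ccl19 was 6.82, 110 and 8.31 in the vehicle tumors, 74.1, 19.6 and 22.8 in the ADU-S100 tumors, 33.1, 220 and 2.95 in the olaparib tumors, and 8.91, 24.7 and 9.02 in the combination tumors. The same 3 tumors led, with tumor 1517 highest for both genes. Ccl19 was close to background in several tumors, with 5 counts in olaparib tumor 1521 and 10 in vehicle tumor 1269, and the highest count was 74.

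The high Ccl21a of the 3 tumors did not depend on the scaling. Per 100000 counts of the tumor, Ccl21a took 56.8 counts in vehicle tumor 1529, 70.4 in ADU-S100 tumor 1506 and 121 in olaparib tumor 1517, and between 0.718 and 9.17 in the other 9. In tumor 1517 its 129 counts give a 95% Poisson interval of 1129 to 1606 normalized units, which, as for all such intervals here, covers counting error only. RefSeq lists 5 further mouse genes under the same older name as Ccl21a, near-identical copies that the probe may also count, and which copy gave the counts is not known from the sources used here. Between group means the combination was 0.19 ± 1.98 (SE) below vehicle for Ccl21a and 0.55 ± 1.35 below for Ccl19 on the log2 scale, with limma adjusted p-values of 0.99 for both. Without vehicle tumor 1529 both differences turned, to 1.49 for Ccl21a and 0.68 for Ccl19.

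**Figure D1:**
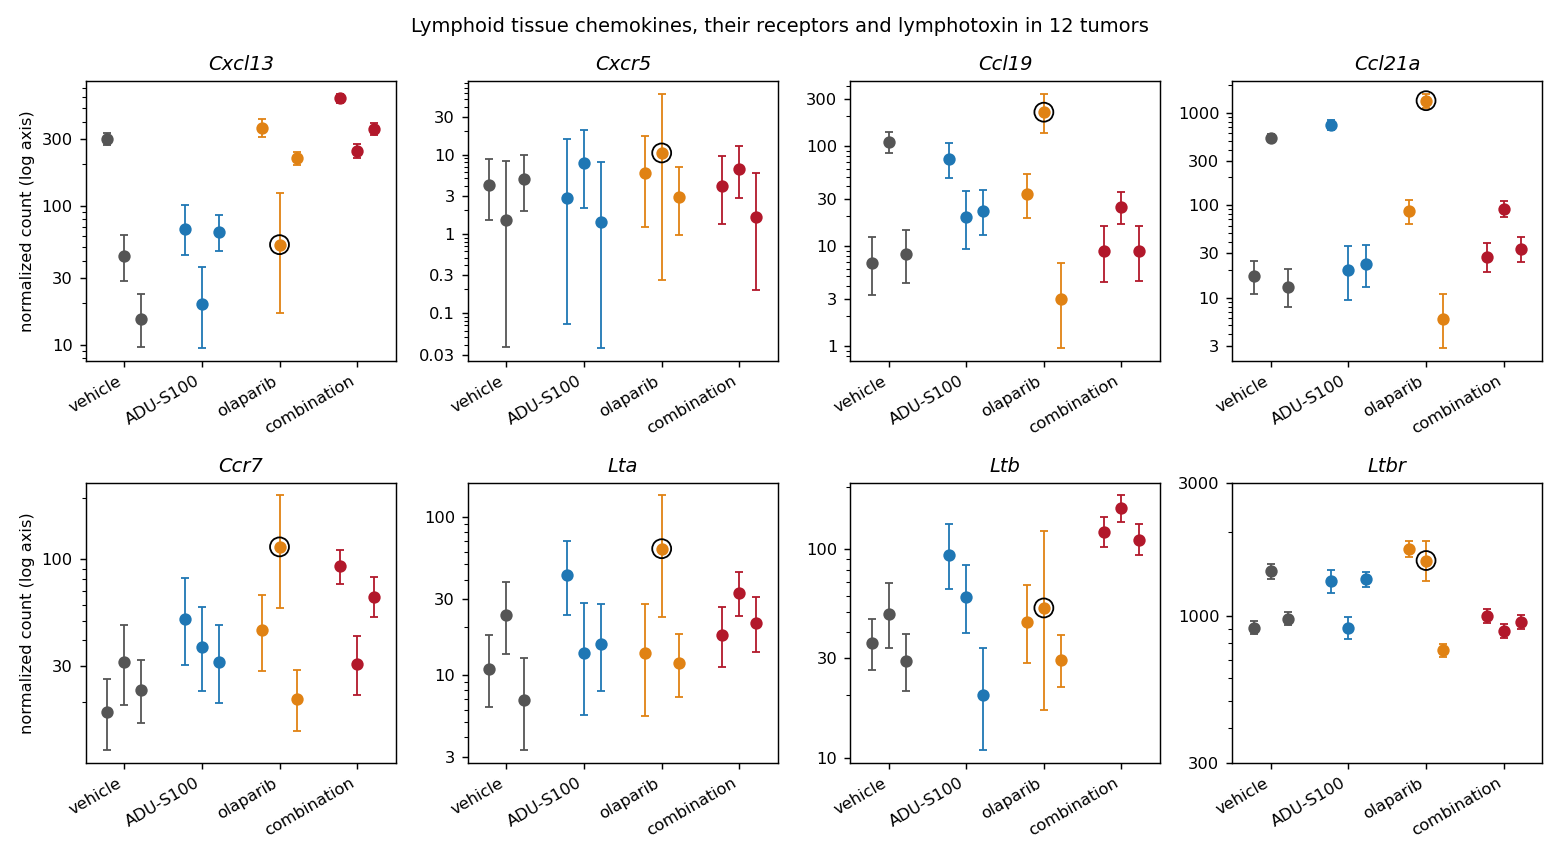
Normalized counts (log axis, different range in each panel) of the 8 members in 12 tumors, 1 point per tumor, in tumor number order within each group; bars are 95% Poisson intervals of the recovered counts, and the ring marks olaparib tumor 1517. Ccl19 and Ccl21a are high in 1 vehicle, 1 ADU-S100 and 1 olaparib tumor, Ltb is highest in the 3 combination tumors, and Cxcr5 lies between 1.43 and 10.5 in all tumors.

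The receptors gave less. Cxcr5, the CXCL13 receptor of B cells and follicular helper T cells, had 1 to 8 counts in every tumor, which is the level of background, and it did not pass the filter on low values. A difference in Cxcr5 was therefore not detectable at this depth. Ccr7, the receptor on naive and central memory T cells and mature dendritic cells, was 17.7, 31.2 and 22.9 in the vehicle tumors, 51.3, 37.3 and 31.4 in the ADU-S100 tumors, 44.8, 115 and 20.6 in the olaparib tumors, and 92.4, 30.5 and 65.6 in the combination tumors. The ADU-S100 tumors lay just above the vehicle tumors, with 31.4 against 31.2 at the closest, and combination tumor 1270 lay within the vehicle range. The value of 115 in tumor 1517 rests on 11 counts (95% interval 57.5 to 206). The combination differed from vehicle by 1.26 ± 0.61 (SE) on the log2 scale, with a limma adjusted p of 0.65.

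Among the lymphotoxin genes, Ltb, the membrane-bound partner in the heterotrimer, separated the combination from all other tumors. Ltb was 35.5, 49.1 and 29.1 in the vehicle tumors, 94.0, 58.9 and 19.98 in the ADU-S100 tumors, 44.8, 52.4 and 29.5 in the olaparib tumors, and 122, 157 and 111 in the combination tumors. Every combination tumor lay above all 9 others, as was so for 22 of the 689 genes fitted (3.19%) and for no other member fitted. The combination differed by 1.77 ± 0.53 (SE) from vehicle, by 1.40 ± 0.53 from ADU-S100 and by 1.62 ± 0.53 from olaparib on the log2 scale, with limma adjusted p-values of 0.28, 0.49 and 0.59. The number series as a block left 1.73, 1.32 and 1.55. Ltb also had few counts, between 136 and 191 in the combination tumors but 5 in olaparib tumor 1517, whose 52.4 units have an interval of 17.01 to 122.

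Lta, which forms the soluble homotrimer and is the other partner in the heterotrimer, had 6 to 40 counts in all tumors. It was 10.9, 23.8 and 6.93 in the vehicle tumors, 42.7, 13.8 and 15.7 in the ADU-S100 tumors, 13.6, 62.9 and 11.8 in the olaparib tumors, and 17.8, 33.0 and 21.3 in the combination tumors. Its highest values were in tumors 1517 and 1506, both with high Ccl21a, and the groups overlapped. The 62.9 of tumor 1517 rests on 6 counts (95% interval 23.1 to 137), where background was 31.4 units. The most counts, 40, were in combination tumor 1270. Ltb and Lta lie on either side of Tnf on chromosome 17 in the RefSeq order. The combination differed from vehicle by 0.87 ± 0.69 (SE) for Lta on the log2 scale, with a limma adjusted p of 0.93.

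Ltbr, which stromal, epithelial and myeloid cells carry, was measured with 151 to 1414 counts. It was 912, 1447 and 980 in the vehicle tumors, 1333, 910 and 1355 in the ADU-S100 tumors, 1742, 1582 and 757 in the olaparib tumors, and 1002, 886 and 957 in the combination tumors. The combination tumors lay closest together, at 948 ± 58.4 (SD, n = 3), within the vehicle range of 912 to 1447 but for tumor 1270. Per 100000 counts of the tumor they took 82.9, 78.7 and 87.1 counts and lay below all 9 others, which took 88.0 to 186. The gap was narrow, with 87.1 in combination tumor 1539 (1167 counts) and 88.0 in vehicle tumor 1269 (1337 counts). The share of all genes that separate so under this scaling is not given here. The log2 difference from vehicle was within its error, at -0.20 ± 0.41 (SE), with a 95% interval from -1.10 to 0.70 and a limma adjusted p of 0.99.

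In the comparisons between groups, no member passed the adjusted threshold of 0.05 by limma, and 0% of the 689 genes fitted did so in any of the 6 comparisons. Against vehicle, the combination had higher values for 4 of the 7 members fitted, under the authors' scaling and both other scalings tried, with a median log2 difference of 0.87 beside 0.21 over all genes. Without vehicle tumor 1529 all 7 were higher, with 1.46 beside 0.43. Cxcl13 and Ltb had an unadjusted limma p below 0.05, as did 7.69% of all genes, and 1 member, Ltb, did not overlap between the groups, against 20% of all genes. Against ADU-S100 the same 2 members had an unadjusted p below 0.05 (9.14% of all genes) and did not overlap (31.3% of all genes), both with higher values in the combination. Against olaparib Ltb alone did so by p (7.26% of all genes) and by lack of overlap (12.8% of all genes). Without tumor 1517 the combination was higher than olaparib for 6 of 7 members instead of 4, with a median of 0.83 instead of 0.09, and Ccl19 (0.24) and Ccl21a (0.88) turned from -1.18 and -1.05.

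Under the single agents the direction of the members followed the scaling. ADU-S100 had higher values than vehicle for 6 of 7 members, with a median log2 difference of 0.48 beside 0.44 over all genes, but for 4 with each tumor scaled to the same median and for 0 after quantile normalization. Olaparib had higher values than vehicle for 7 of 7, with 0.78 beside 0.45 over all genes, but for 5 and 4 under the other 2 scalings. Without tumor 1517 it was 4 of 7, with a median of 0.04 beside 0.09 over all genes, from -1.08 for Ccl21a to 2.24 for Cxcl13. By unadjusted p no member passed in either comparison, where 4.79% and 7.26% of all genes did, and lack of overlap was seen for Ccr7 under ADU-S100 (14.9% of all genes) and for 0 members under olaparib (4.79% of all genes). In the interaction, which subtracts the ADU-S100 effect without olaparib from that with olaparib, 0 members had an unadjusted p below 0.05 beside 10.9% of all genes, and the values ran from -1.91 for Ccl19 to 1.62 for Cxcl13, and without tumor 1517 from -0.49 for Ccl19 to 1.42 for Ltb. On recovered counts, edgeR (quasi-likelihood) likewise gave 0 members past the adjusted threshold in each comparison, with the authors' factors and with TMM. By unadjusted p, edgeR gave Ccr7 and Ltb, and not Cxcl13, for the combination against vehicle with both sets of factors. Against ADU-S100 it gave Cxcl13 alone with the authors' factors and both Cxcl13 and Ltb with TMM, against olaparib Ltb with both, and in the interaction Ltb with TMM. The share of all genes with an unadjusted edgeR p below 0.05 is not given here, so these calls have no background beside them. These comparisons share the combination or the vehicle tumors.

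**Figure D2:**
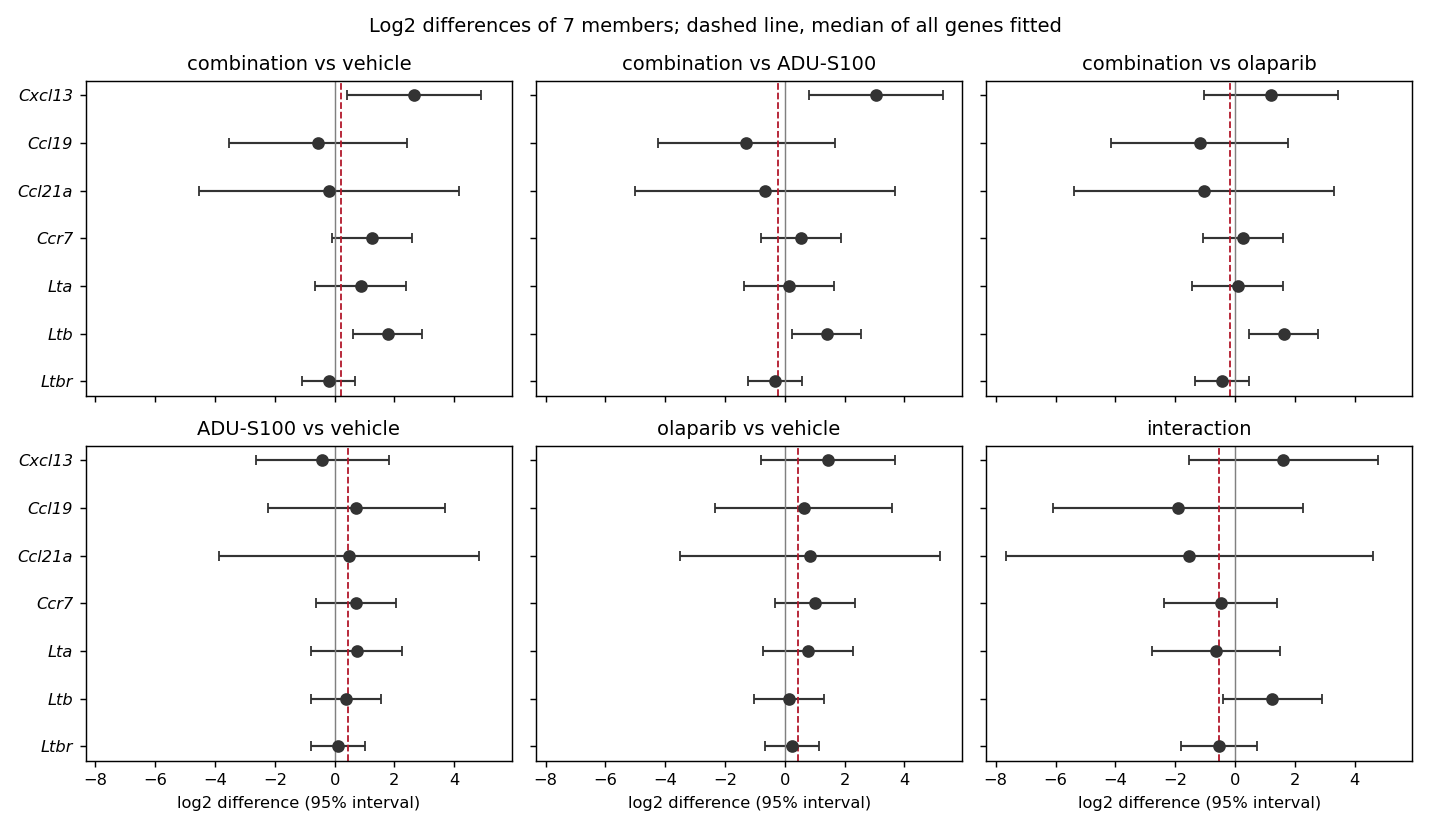
Log2 differences (x axis) of the 7 members fitted (y axis) in the 6 comparisons, with 95% intervals from limma over 12 tumors; the dashed line is the median of all 689 genes fitted. Intervals of Cxcl13 and Ltb lie above 0 against vehicle and against ADU-S100, and those of Ccl19 and Ccl21a span several log2 units in every panel.

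The members did not form 1 block across the tumors. Over the 21 pairs of the 7 members fitted, the Pearson correlation of log2 values over the 12 tumors had a median of 0.44, with 17 of 21 above 0, beside a median of 0.30 over the 237016 pairs of all genes fitted, of which 71.6% were above 0. With treatment group means subtracted the medians were 0.58 for members and 0.36 for all pairs. How the members compared with other genes varied with the scaling. With the linear term in log2 of the scaling factor removed the medians were 0.39 and 0.12, with background subtracted 0.34 and 0.20, with each tumor scaled to the same total 0.25 and 0.21, and with quantile normalization -0.066 and 0.00082. Between log2 of the factor and the members, r was 0.87 for Ccl19, 0.79 for Ccl21a, 0.73 for Ltbr, 0.71 for Lta, 0.62 for Ccr7, 0.02 for Ltb and -0.36 for Cxcl13.

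Ccl19 and Ccl21a were the closest of the 21 pairs under each scaling tried. Their r was 0.95 (Spearman rho 0.92, n = 12 tumors), reached by 0.21% of all pairs, and it was 0.91 without tumors 1506 and 1517, which lie farthest from the median of Ccl21a. Since 3 tumors stand apart in Ccl21a, r was also taken over the other 9, where it was 0.81. With the same total it was 0.94, with quantile normalization 0.92, with the linear term in the scaling factor removed 0.86, with group means subtracted 0.96, and in the 9 tumors of the number series starting with 15 it was 0.95. Lta and Ltb also stayed above 0, with r of 0.53, and 0.26 with the same median, 0.56 with quantile normalization, 0.37 with the same total, 0.74 with the linear term in the scaling factor removed and 0.63 with group means subtracted.

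Cxcl13 took another course. Its r with Ccl19 was -0.37 and with Ccl21a -0.19, and with the same total these were -0.52 and -0.32. With the linear term in the scaling factor removed they were -0.12 and 0.18, and Spearman rho was -0.21 and 0.06. Tumor 1517, the highest in both Ccl19 and Ccl21a, had 5 counts of Cxcl13 at the lowest total, and tumors 1529 and 1506 had 43.1 and 68.4 normalized units, while the combination tumors, with Cxcl13 of 249 to 593, had Ccl21a of 27.5 to 91.5. For Ltb, r was 0.40 with Cxcl13 and 0.33 with Ccl21a, and the scaling moved both, to 0.54 and -0.25 with the same median and 0.61 and -0.37 with quantile normalization, and with group means subtracted they were -0.12 and 0.70. Lta followed Ccl21a with r of 0.86 under the authors' scaling and 0.87 with the same total, but 0.14 with quantile normalization. It was 0.65 with background subtracted and 0.66 without tumors 1506 and 1517.

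**Figure D3:**
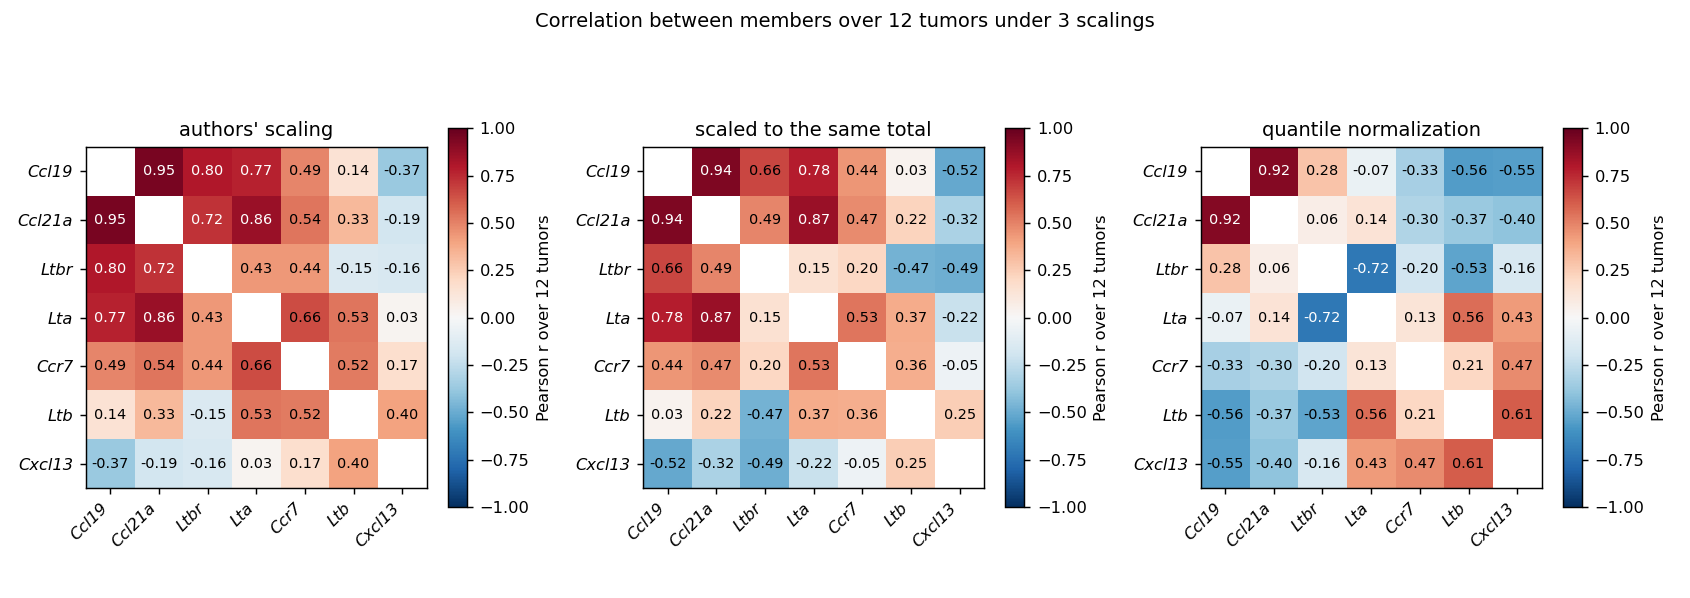
Pearson r over 12 tumors between the 7 members fitted under the authors' scaling (left), with each tumor scaled to the same total (middle) and after quantile normalization (right); rows and columns are genes and the color scale runs from -1 to 1. The Ccl19 and Ccl21a pair is at 0.95, 0.94 and 0.92, Cxcl13 is negative with both in these 3 panels, and pairs of Lta, Ltbr and Ccr7 change sign or size.

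The genes that followed each member most closely differed between the courses. Ccl21a was nearest to Dpp4, a surface peptidase (r = 0.95), Ccl19 itself and Il6st, the shared receptor chain of the interleukin-6 family (0.94), and Ccl19 to Cd55, a complement inhibitor, Klrg1 and Pparg, the adipocyte and lipid regulator (0.96 each). Dpp4 was 137 in tumor 1529, 225 in tumor 1506 and 210 in tumor 1517, and 9.55 to 66.2 in the other 9. Over these 9 tumors r with Ccl21a was 0.81 for Dpp4 and 0.82 for Il6st. Klrg1 had 7 to 21 counts in all tumors, not far above background.

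The endothelial marker Pecam1 marked the same 3 tumors. It was 2359 in tumor 1529, 1985 in tumor 1506 and 8625 in tumor 1517, and 105 to 507 in the other 9. Its r with Ccl21a was 0.78 over 12 tumors but -0.40 over those 9, so the relation rests on the 3 tumors. Per 100000 counts Pecam1 was 251, 187 and 775 in the 3 tumors and 11.2 to 68.9 in the others, and Cdh5, endothelial cadherin, was 175, 136 and 381 against 12.7 to 64.5. Whether the tumor pieces of these 3 differed in the tissue they held was not tested.

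Cxcl13 was nearest to the interferon-induced genes Ifit2 (r = 0.90, rho 0.94) and Ifi44 (0.89) and to Cd81, a tetraspanin (0.88). Ifit2 was 608, 332 and 274 in the vehicle tumors, 769, 344 and 391 in the ADU-S100 tumors, 1031, 346 and 628 in the olaparib tumors, and 1077, 879 and 913 in the combination tumors. The 3 combination tumors and olaparib tumor 1510 were high in both genes, and ADU-S100 tumor 1506 had high Ifit2 with 68.4 units of Cxcl13. Without the 2 tumors farthest from the median of Cxcl13, r with Ifit2 was 0.85, and with group means subtracted it was 0.86. Epcam also followed Cxcl13, with r of 0.79 under the authors' scaling and 0.63 with the same total, and so did Relb, the partner of NF-κB2 (0.59 and 0.37), while r with Nfkb2 was -0.07, and with the linear term in the scaling factor removed it was 0.85 for Relb and 0.75 for Nfkb2.

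Ltb was nearest to Selplg, the P-selectin ligand of leukocytes (r = 0.94), Cd3g, a chain of the T cell receptor complex (0.92), and Cyfip2 (0.90). Cd3g was 23.9, 29.7 and 18.7 in the vehicle tumors, 65.5, 27.5 and 22.8 in the ADU-S100 tumors, 35.1, 52.4 and 22.4 in the olaparib tumors, and 60.8, 109 and 66.4 in the combination tumors. These relations were little touched by the scaling, with r of 0.89 for Cd3g and 0.87 for Selplg at the same total and 0.92 and 0.91 after quantile normalization, and with group means subtracted they were 0.83 and 0.84. Lta was nearest to Klrd1, an NK cell receptor chain (0.92, and 0.20 after quantile normalization), Cd200 (0.92) and Batf (0.91). Ccr7 was nearest to Pycard, the inflammasome adaptor (0.90), Batf and Tlr9 (0.82 each), and Ltbr to Tnfrsf1a, a TNF receptor (0.93), Rora (0.93) and Map2k2 (0.92).

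**Figure D4:**
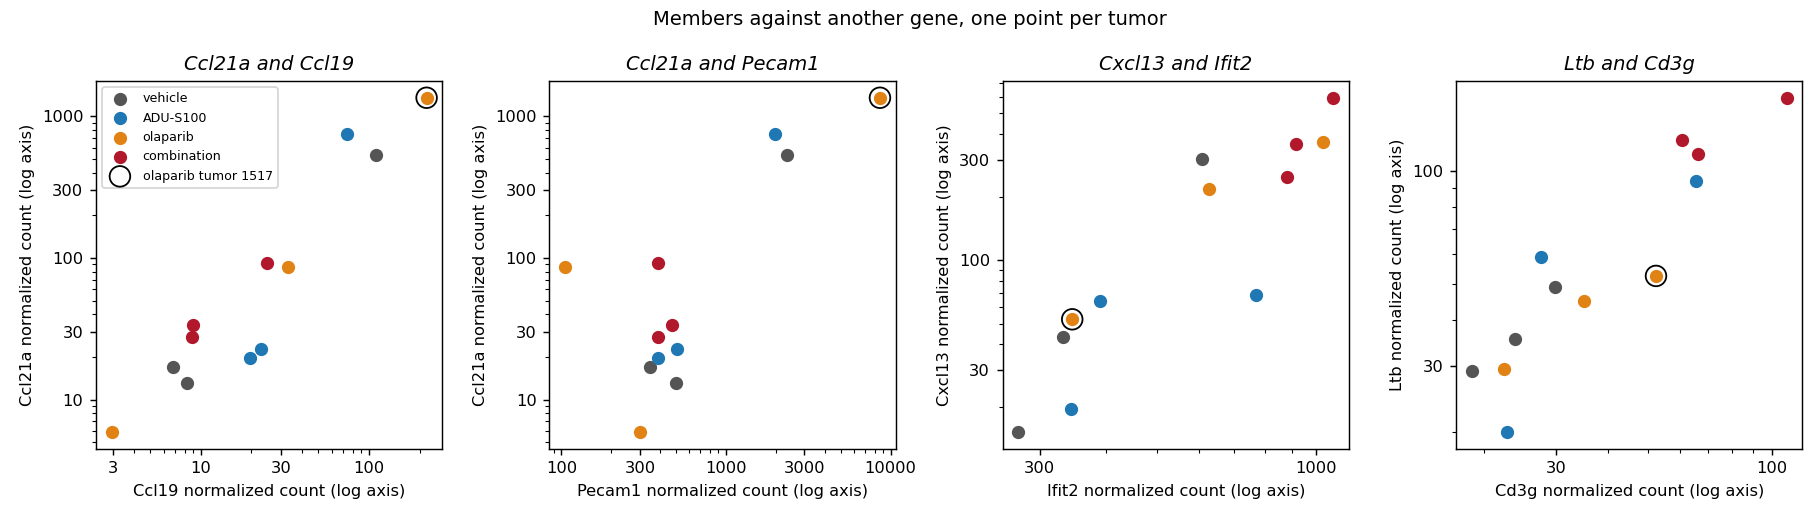
Normalized counts (log axes) of Ccl21a against Ccl19 and against Pecam1, of Cxcl13 against Ifit2 and of Ltb against Cd3g, 1 point per tumor, colored by group, with a ring around olaparib tumor 1517. The 3 tumors of different groups with high values stand apart in Ccl21a, Ccl19 and Pecam1, whereas the 3 combination tumors lie at the upper end of Cxcl13 with Ifit2 and of Ltb with Cd3g.

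Genes of the wider lymphoid tissue program were taken from lists, with log2 differences relative to vehicle unless another group is named. Scaling to the same median lowers every difference of the combination from vehicle by about the 0.21 of all genes. It lowers those of the single agents from vehicle by more. Beside every list, 65.3% of all genes were higher than vehicle in the combination, 78.2% in ADU-S100 and 74.6% in olaparib. Their medians were 0.21, 0.44 and 0.45. Against ADU-S100 and olaparib, 40.3% and 41.4% of all genes were higher in the combination, with medians of -0.22 and -0.15. Without tumor 1517 the medians of all genes were 0.09 for olaparib against vehicle and 0.22 for the combination against olaparib. No gene of any list passed the adjusted threshold by limma in any comparison. Of the 15 TNF family ligands and receptors of lymphoid tissue, 13 had higher values in the combination than in vehicle (65.3% of all genes did), 9 with the same median and 7 after quantile normalization, with a median log2 difference of 0.32 beside 0.21 over all genes that became -0.07 beside -0.05 after quantile normalization, from 1.11 for Tnf to -0.34 for Tnfrsf13c, the BAFF receptor. Of 11 genes fitted of the NF-κB pathway below the lymphotoxin β receptor, 10 were higher with a median of 0.32, from 0.83 for the inhibitor Nfkbia to -0.07 for the kinase gene Ikbkb, and the median was 0.12 under both other scalings. Each single agent was also higher than vehicle for 10 of these 11. The medians were 0.32 for ADU-S100, beside 0.44 over all genes, and 0.51 for olaparib, beside 0.45 (8 of 11 and 0.18 without tumor 1517). Under olaparib 4 had an unadjusted limma p below 0.05 beside 7.26% of all genes. The combination was higher for 7 of 11 against ADU-S100, with 0.13, and for 2 of 11 against olaparib, with -0.32 (4 of 11 and -0.10 without tumor 1517). Of 13 fitted genes of lymphoid organ formation and homing, 10 were higher with a median of 0.69 (0.48 with the same median and 0.21 after quantile normalization), from 1.99 for Glycam1, a ligand of L-selectin in high endothelial venules, to -1.28 for Cxcl12, the CXCR4 ligand. ADU-S100 was higher than vehicle for 9 of 13, with 0.58, and olaparib for 10 of 13, with 0.57 (9 of 13 and 0.08 without tumor 1517), and the combination for 7 of 13 against ADU-S100, with 0.33, and 8 of 13 against olaparib, with 0.21 (10 of 13 and 0.71 without tumor 1517). Of 10 fitted genes of follicular helper T cells, 9 were higher with a median of 0.74, from 1.63 for the costimulator Icos to -0.25 for Il6, and a median of 0.35 after quantile normalization. Each single agent was higher than vehicle for 10 of 10, with 0.70 for ADU-S100 and 0.59 for olaparib (6 of 10 and 0.06 without tumor 1517). The combination was higher for 5 of 10 against ADU-S100, with -0.03, and for 5 of 10 against olaparib, with -0.12 (8 of 10 and 0.78 without tumor 1517).

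Markers of the cells that lymphoid tissue would hold gave a mixed account. Of 17 B cell and follicle genes in the table, 9 passed the filter on low values, and 7 of them were higher in the combination, with a median of 0.56 (5 of 9 and 0.35 with the same median, 6 of 9 and 0.20 after quantile normalization), from 1.06 for Blnk, a B cell adaptor, to -0.34 for Tnfrsf13c. Of the defining genes, Ms4a1, which encodes CD20, had 10 to 25 counts, with 25 and 24 in combination tumors 1270 and 1539 and 12 in tumor 1517, and Cr2, carried by follicular dendritic cells and B cells, had 2 to 14, beside the 3 to 7 counts of genes at background. The single agents had higher values than vehicle for 8 of these 9 genes. The medians were 0.78 for ADU-S100, beside 0.44 over all genes, and 0.81 for olaparib, beside 0.45 (0.04 beside 0.09 without tumor 1517). The combination was higher for 1 of 9 against ADU-S100, with a median of -0.54, and for 2 of 9 against olaparib, with -0.72 (4 of 9 and -0.02 without tumor 1517). Against ADU-S100 the TNF family list was at 5 of 15, with -0.21 beside -0.22 over all genes. Against olaparib it was at 5 of 15, with -0.09 beside -0.15 (9 of 15 and 0.16 without tumor 1517).

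For the combination against vehicle, T cell genes had the highest median of the lists, also under both other scalings (1.08 and 0.77). All 12 fitted were higher in the combination, with a median of 1.29, from 1.75 for Cd3e to 0.11 for Lck, and 4 of the 12 had an unadjusted limma p below 0.05, beside 7.69% of all genes. ADU-S100 was higher than vehicle for 11 of 12, with a median of 0.72 beside 0.44 over all genes. Olaparib was higher for 10 of 12, with 0.89 beside 0.45 (8 of 12 and 0.26 without tumor 1517). The combination was higher for 8 of 12 against ADU-S100, with 0.26, and for 9 of 12 against olaparib, with 0.39 (12 of 12 and 1.17 without tumor 1517). Cd3e was 14.3, 19.3 and 6.23 in the vehicle tumors, 28.5, 9.82 and 18.5 in the ADU-S100 tumors, 29.2, 52.4 and 10.6 in the olaparib tumors, and 29.2, 70.1 and 39.4 in the combination tumors. The combination tumors lay above the vehicle and ADU-S100 tumors and overlapped with olaparib tumors 1510 and 1517, the latter with 5 counts. The summed T cell list was 242 to 452 in vehicle, 401 to 1000 in ADU-S100, 288 to 1142 in olaparib and 566 to 876 in combination tumors. Of the dendritic cell genes 7 of 9 were higher, with a median of 0.44 (0.24 with the same median and 0.09 after quantile normalization), from 1.63 for Ccl22 to -0.21 for Ccl17, and of the NK cell genes 6 of 7, with 0.51 (0.30 and 0.25 under the same 2 scalings), from 2.41 for Klrk1 to -0.35 for Klrb1c. Each single agent was higher than vehicle for 7 of 7 NK cell genes, with 1.47 for ADU-S100, where 3 had an unadjusted limma p below 0.05 beside 4.79% of all genes, and 0.88 for olaparib (4 of 7 and 0.47 without tumor 1517). Of the NK cell genes in the combination 1 of 7 was higher than in ADU-S100, with -0.95, and 1 of 7 higher than in olaparib, with -0.23 (5 of 7 and 0.46 without tumor 1517). ADU-S100 was higher than vehicle for 7 of 9 dendritic cell genes, with 0.50, and olaparib for 8 of 9, with 0.60 (6 of 9 and 0.28 without tumor 1517). Of the dendritic cell genes in the combination 7 of 9 were higher than in ADU-S100, with 0.28, and 4 of 9 higher than in olaparib, with -0.15 (6 of 9 and 0.29 without tumor 1517).

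The stromal, endothelial and macrophage lists had medians below 0 in the combination against vehicle. Tumor 1529 had the highest sum of each of these lists among the vehicle tumors, and medians without it are not given here. All 8 stromal genes were lower than in vehicle, with a median of -1.18, from -0.90 for Col3a1 to -1.59 for Fn1. Olaparib alone was likewise lower than vehicle for all 8, with -1.17, where 4 had an unadjusted limma p below 0.05 beside 7.26% of all genes, and the combination was higher than olaparib for 4 of 8, with 0.01 (8 of 8 and 0.72 without tumor 1517). ADU-S100 was higher than vehicle for 3 of 8, with -0.29. Of 12 endothelial and venule genes 3 were higher in the combination than in vehicle, with a median of -0.78, from 1.99 for Glycam1 to -1.09 for Cd34 (against olaparib 4 of 12 and -0.70, but 11 of 12 and 0.78 without tumor 1517). Their sum was 12692 in vehicle tumor 1529 but 2094 and 3011 in the other vehicle tumors, beside 2606 to 3230 in the combination. Of 7 macrophage genes 2 were higher than in vehicle, with -0.16, from 0.19 for Cd68 to -1.32 for Mrc1. The macrophage sums were 1325, 5148 and 3740 in the vehicle tumors and 2910, 2234 and 2561 in the combination tumors. The 3 epithelial genes had a median of 0.47, from 1.40 for Muc1 to 0.06 for Cdh1, and the 3 general leukocyte genes 0.16 (-0.14 after quantile normalization), from 0.55 for Ptprc to -0.16 for Cd53. Summed endothelial and venule counts were 2094 to 12692 in vehicle, 2540 to 11143 in ADU-S100, 1140 to 33293 in olaparib and 2606 to 3230 in combination tumors. Summed stromal counts were 18554 to 97333 in vehicle, 37119 to 62490 in ADU-S100, 7343 to 36867 in olaparib and 15668 to 30248 in combination tumors, and their part in the levels of Ccl19, Ccl21a and Cxcl13 was not tested. Across tumors the stromal list had r of 0.54 with Ccl19, 0.51 with Ccl21a and -0.72 with Cxcl13, and the T cell list 0.75 with Ltb, 0.89 with Lta and 0.20 with Cxcl13. With the linear term in the scaling factor removed the T cell list was at 0.91, 0.83 and 0.54. The NF-κB list had r of 0.19 with Cxcl13, 0.91 with that term removed and -0.10 with group means subtracted. With Ccl19 and Ccl21a, r was 0.89 for both with the B cell and follicle list, 0.87 and 0.91 with the TNF family list, 0.82 and 0.88 with lymphoid organ formation and 0.80 and 0.85 with follicular helper T cells. It was 0.87 and 0.88 with general leukocyte genes and 0.82 and 0.87 with endothelial and venule genes, a list that shares Glycam1, Vcam1 and Icam1 with that of organ formation (0.59 and 0.68, and 0.54 and 0.70, with the linear term in the scaling factor removed). It was 0.59 and 0.58 with macrophage genes and -0.04 and 0.02 with epithelial genes. With Cxcl13 the B cell, TNF family, organ formation and follicular helper lists were at -0.24, -0.07, 0.05 and -0.01. With the linear term in the scaling factor removed these 4 were at 0.51, 0.52, 0.49 and 0.34 with Ccl19, 0.68, 0.73, 0.70 and 0.59 with Ccl21a and 0.23, 0.46, 0.55 and 0.51 with Cxcl13.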

How the data were processed

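Normalized nCounter counts of 750 genes in 12 tumors were used, 3 per treatment group, with groups taken from the sample labels. The unit of the deposited table is a signal, linear in scale, which the authors obtained in nSolver by correcting for background and by scaling to positive controls and then to housekeeping genes, from 100 ng of RNA per tumor hybridized to the mouse PanCancer Immune panel. The genome build is not given in the sources used here, and 736 symbols were current in RefSeq, 8 older and 6 unmatched. All 8 members matched current symbols. The members and all gene lists were chosen with earlier results of these data known, so no test over the members alone was made and correlations carry no p-value.

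Counts were recovered per tumor as whole multiples of 1 step, and 99.87% or more of a tumor's values were whole to within 0.01, with totals of 106206 to 1519471. Values on the floor of 1 were taken as 0 counts. Intervals on counts are exact 95% Poisson intervals. Log2(normalized count + 1) values were fitted with limma 3.58.1 in R 4.3.3 (lmFit and eBayes, 1 mean per group over all 12 tumors) for the 689 genes at 20 or more in at least 3 tumors, which left out Cxcr5, and p-values were Benjamini-Hochberg adjusted over all 689 with a threshold of 0.05. A fold on this scale understates the change of low genes. The labels call the tumors separate but give no donor tumor, so p-values measure the spread between these tumors. Correlations used Python 3.11.15 with numpy 2.4.6 and pandas 2.3.3, and figures matplotlib 3.10.9.

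The genes named are all members, the 3 genes with the highest correlation with each member, the highest and the lowest gene of each list in the combination against vehicle, and the defining markers Ms4a1, Cr2, Cd3e, Pecam1, Epcam, Ptprc, Nfkb2 and Relb. Cdh5 was named after its values were seen, and 1 further defining marker is not reported here. Each tumor was left out in turn. Other alternatives were edgeR 4.0.16 on recovered counts, each tumor's scaling factor as a covariate, the number series as a block, the methods' t-test, fits restricted to 2 groups, an intensity trend in eBayes, quantile normalization, scaling of each tumor to 1 common median, a pseudocount of 10, and a filter raised to 50 or left out. Subtraction of a background per tumor (the median recovered count of the 30 lowest genes), scaling to the same total, and correlations over the 9 tumors with low Ccl21a were chosen after seeing the data. The fits and the recovery of counts were tested on simulated data.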

Additional observations from a re-analysis of the deposited data

Results flagged for a closer look

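Ccl19 was singled out because all 3 ADU-S100 tumors lay above the vehicle mean and all 3 combination tumors lay below the olaparib mean on the log2 scale, which gave an interaction of -1.91. The opposite movement itself was not tested. In the limma fit over all genes the interaction had a 95% interval from -6.10 to 2.28 and an adjusted p of 0.65. When each tumor's scaling factor entered the fit as a covariate, it was 2.23. Without olaparib tumor 1517 it was -0.49, and the combination against olaparib was 0.24 instead of -1.18. Ccl19 had 5 to 74 counts in these tumors.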

How the results depend on the processing

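The number of members past the adjusted threshold was 0 in each of 153 alternative results, summed over the 6 comparisons. The 42 log2 differences of the members moved by less than the residual spread in 1032 of 1065 alternatives and turned sign in 86, of which 10 concerned differences over 1. The list medians stayed within that spread in 1513 of 1560 alternatives and turned sign in 155. Alternatives that keep the group means cannot move a difference, such as the methods' t-test or leaving out a tumor of a group not compared. These tallies therefore say little of how stable the differences are. The sign of Cxcl13 and Ltb in the combination against each other group held under each alternative. For members whose groups do not overlap, scaling to the same median gave 3 for the combination against vehicle (1 as deposited) and 0 for ADU-S100 against vehicle (1 as deposited), and quantile normalization gave 2 and 0, and 1 for olaparib against vehicle (0 as deposited). Leaving out each tumor in turn gave 1 to 5 for the combination against vehicle (5 without vehicle tumor 1529), 2 to 4 against ADU-S100, 1 to 3 against olaparib, 1 to 4 for ADU-S100 and 0 to 2 for olaparib against vehicle, where groups of 2 overlap less by construction. The shares of all genes without overlap under these scalings and omissions are not given here, so these counts have no background beside them. The median correlation over member pairs was -0.092 with each tumor scaled to the same median and -0.066 after quantile normalization, 0.25 with the same total, 0.29 without a filter, which adds Cxcr5, and 0.58 with group means subtracted, and it ran from 0.35 (without olaparib tumor 1517) to 0.50 (without vehicle tumor 1529). Under the same median the median over all pairs was 0.04. No paired analysis was possible because the groups share no replicate numbers. Low counts of Cxcr5, Lta and Ccl19 limit what could be seen.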
